A study of Mus musculus with 7 samples.

Results

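The Frizzled receptors Fzd1 to Fzd10 were followed in sorted mouse muscle stem cells (satellite cells) of young and geriatric animals. They comprised all 10 genes of the family among the 36406 gene names of an Agilent array, read by 13 of its 55681 probes other than controls. Every probe whose gene name was that of a family member was taken, whatever its values, and each probe was described on its own.

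RNA came from male C57BL/6 mice, with no genetic change or treatment named in the labels. Ages were 2, 2 and 3 months for the 3 young arrays, and 28, 28, 29 and 30 months for the 4 geriatric arrays. Cells of resting muscle that carried integrin α7 and CD34 were sorted, those with Sca1, CD11b, CD45 or CD31 being gated out. The small amount of RNA was amplified before labelling with Cy3. The labels do not say whether a sample was 1 mouse or a pool, so a p-value here speaks only of the spread among the samples at hand, which may be technical in part.

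Geriatric arrays 1 and 2 bore 1 sample name in their descriptions. For 94.98% of probes the processed signals of the 2 arrays differed by no more than 2 combined errors, where any other pair of arrays reached 58.37% to 65.64%. They thus differed by about the noise that the array software assigns to its signals. They were counted as 1 sample, leaving 3 samples in each group. On the 10 Frizzled probes that were well above background on all 7 arrays, the median absolute difference between these arrays was 0.0722 log2 units and the largest was 0.353 (Fzd8). Of 12 satellite cell markers, 12 were well above background on all 7 arrays, with the paired-box factor Pax7 at a signal of 20080 to 33611.

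Frizzled proteins are serpentine membrane receptors whose extracellular cysteine-rich domain binds Wnt ligands. With the co-receptors Lrp5 and Lrp6 they pass the signal to Dishevelled, which stops the destruction of β-catenin, and with planar cell polarity proteins they act on the cytoskeleton without β-catenin. In muscle, Fzd7 is known as the receptor through which Wnt7a expands the satellite cell pool, and Fzd4 is also the receptor of Norrin, a ligand unrelated to the Wnts.

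The 13 probes were 60 bases long, and none shared a run of 20 bases with a probe of a gene outside the family. Binding of a probe to the transcript of another gene was not analysed. The only genes read by more than 1 probe were Fzd2, Fzd5 and Fzd7, whose probes started 1432, 2493 and 1825 bases apart on mm9. The closest pair among different genes was the first probe of Fzd2 (A_51_P404077, chr11:102467613-102467672, plus strand) and the first probe of Fzd7 (A_51_P142107, chr1:59541367-59541426, plus strand). These are shown, as the array files give them, because they read the same stretch of both receptors while their signals went different ways across the geriatric samples. Capitals mark the bases that differ where the probes align.
Fzd2: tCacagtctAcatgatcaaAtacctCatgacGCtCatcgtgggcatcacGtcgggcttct
Fzd7: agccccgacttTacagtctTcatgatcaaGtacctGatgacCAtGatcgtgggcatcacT
Bases 1 to 50 of the Fzd2 probe aligned with bases 11 to 60 of the Fzd7 probe, with 42 of 50 bases identical (84.0%) and 8 different. Of 2 reading frames open in both probes, 1 had 6 of these 8 differences on the third base and the other had 1. No other pair of probes of different genes had more than 26 identical bases (Fzd4 and Fzd8, of 59 aligned) or more than 53.5% identity (Fzd2 and Fzd4, 23 of 43).

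The question was whether Frizzled transcripts differ between geriatric and young satellite cells. Fzd4 was higher in each geriatric sample than in any young one. Fzd10 was measured on no young array and on geriatric arrays 1, 2 and 4, of which arrays 1 and 2 count as 1 sample. All 5 probes of the related receptors Fzd1, Fzd2 and Fzd7 had higher geriatric means, though Fzd1 differed by only 0.099 log2 units without geriatric sample 3. Fzd3 and Fzd8 had lower geriatric means, that of Fzd8 through 1 low sample (−0.100 log2 units without geriatric arrays 1 and 2). Fzd5 differed little on either probe, and Fzd6 and Fzd9 each had 1 geriatric array far from the rest. Of the 12 Frizzled probes tested, 0 passed an adjusted p of 0.05 (limma with Benjamini-Hochberg adjustment over 41261 probes), so no member is said to have risen or fallen; over all probes 6 passed, which is 0.0145%.

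At an unadjusted p under 0.05, limma gave 2 of the 12 Frizzled probes (Fzd4 and Fzd10), against 7.33% of all tested probes. Among the 10 probes well above background on all 7 arrays, the geriatric samples lay wholly above the young samples on 1, that of Fzd4, against 6.93% of all tested probes. They lay wholly below on 0, against 5.86% of all probes, and groups that did not overlap in either direction made up 12.8%. These shares are over all tested probes, which include probes measured on as few as 3 arrays. Fzd10 could enter the test only through its geriatric arrays, since no young array measured it, so its place among the unadjusted p-values was partly set by the filter. Among the 10 probes measured on all arrays, 7 had a higher and 3 a lower geriatric mean, with 1 unadjusted p under 0.05. In a limma fit of the 33917 probes measured on all arrays, 2714 had an unadjusted p under 0.05. The median difference of the 12 tested probes was 0.46 log2 units, against −0.0071 over all tested probes, of which 49.2% had a higher geriatric mean. Differences are geriatric minus young, in log2 units of processed signal relative to the 75th percentile of each array.

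**Figure D1:**
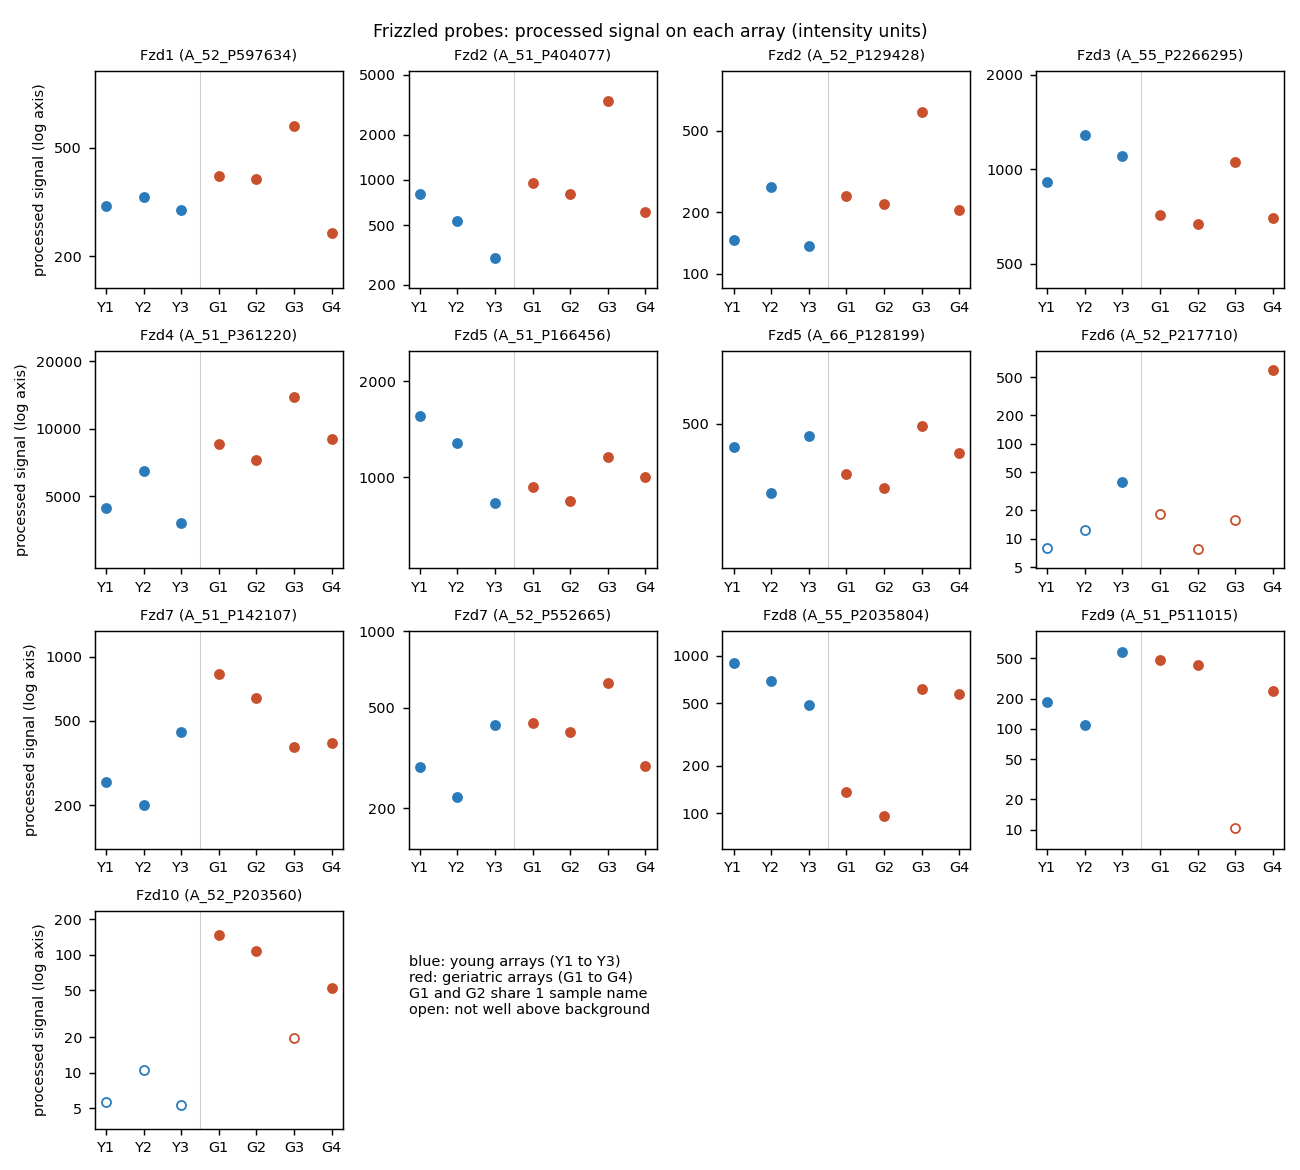
Processed signal (intensity units, log axis) of the 13 Frizzled probes on the 3 young arrays (Y1 to Y3) and the 4 geriatric arrays (G1 to G4, of which G1 and G2 share a sample name); open points were not well above background. Fzd4 ran from 3802 to 6467 on the young arrays and from 7202 to 13885 on the geriatric ones, Fzd6 stood at 595 on geriatric array 4, and Fzd9 fell to background on geriatric array 3.

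Fzd4, the receptor shared by Wnts and Norrin (A_51_P361220, chr7:96557478-96557537 on mm9, plus strand), had signals of 4419, 6467 and 3802 on young arrays 1, 2 and 3. On geriatric arrays 1 to 4 its signals were 8568, 7202, 13885 and 8968. All 4 geriatric arrays were brighter than each young array. The level, log2 signal relative to the array's 75th percentile, was 1.645 ± 0.422 (SD, n = 3) in young and 2.759 ± 0.371 (SD, n = 3) in geriatric samples. The geriatric mean was 2.16-fold the young one, a difference of 1.11 log2 units (SE 0.309, 95% interval 0.352 to 1.875), with a limma adjusted p of 0.506 and an unadjusted p of 0.0119. The difference of the means exceeded the SD within either group, yet the probe did not pass over all probes. With any 1 sample left out and under every other processing tried, the geriatric mean stayed higher by 0.791 to 1.332 log2 units, with limma adjusted p between 0.265 and 0.819. Among these, the changes of filter and the block by the number in the sample description could not alter the difference.

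Fzd10, a receptor of the same branch of the family as Fzd4 (A_52_P203560, chr5:129109798-129109857, plus strand), had signals of 5.68, 10.5 and 5.39 on the young arrays. None of these was well above background. On geriatric arrays 1 to 4 it gave 146, 108, 19.8 and 52.7, and 3 of these 4 were well above background, geriatric array 3 being the exception. The faintest probe still well above background stood at 25.2 to 28.1 on the young arrays, so the young level is only a bound. Set against that bound the geriatric mean was 2.04-fold higher. This is not a lower limit, because the mean includes geriatric sample 3 at a signal not well above background. The limma adjusted p was 0.427 and the unadjusted p 0.00713, and the fitted difference of 2.945 log2 units depended on signals below background (SE 0.727). Over the alternatives tried the fitted difference ran from 1.000 (the authors' table) to 4.356 (the slide row as a block), and was 1.07 with another background correction, with limma adjusted p from 0.170 to 0.752. Geriatric arrays 1 and 2, counted as 1 sample, were the brightest for this gene.

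Fzd9, the remaining receptor of that branch (A_51_P511015, chr5:135724815-135724874, minus strand), had signals of 185, 109 and 586 on the young arrays. On geriatric arrays 1 to 4 it gave 488, 430, 10.4 and 239, and geriatric array 3 was not well above background. The groups overlapped, and geriatric array 3 alone stood below every young array. The fitted difference depended on that signal below background. The value of −1.066 log2 units had an interval of −4.888 to 2.756 and a limma adjusted p of 0.928. It had no stable direction: without geriatric sample 3 it was 0.653, and without geriatric arrays 1 and 2 it was −2.117.

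Fzd2 (A_51_P404077) belongs with Fzd1 and Fzd7 to the closest related receptors of the family. Its signals on the young arrays were 804, 533 and 304, and on geriatric arrays 1 to 4 they were 959, 811, 3329 and 613. Geriatric array 3 was far above the rest, and geriatric array 4 lay within the young range. The levels were −1.590 ± 0.781 (SD, n = 3) and −0.270 ± 1.176 (SD, n = 3), a difference of 1.319 log2 units (interval −0.384 to 3.023) with a limma adjusted p of 0.765. Without geriatric sample 3 the difference was 0.648.

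The second Fzd2 probe (A_52_P129428, chr11:102469045-102469104, plus strand) gave 147, 265 and 136 on the young arrays. The geriatric arrays 1 to 4 gave 240, 219, 613 and 204. It showed the same high geriatric array 3, with the other geriatric arrays below young array 2. Its difference was 0.868 log2 units (interval −0.304 to 2.040, limma adjusted p 0.773), and 0.422 without geriatric sample 3. Both Fzd2 probes were highest in geriatric sample 3 and lowest in young sample 3.

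Fzd1 (A_52_P597634, chr5:4754003-4754062, minus strand), a receptor that acts through β-catenin, had signals of 307, 331 and 296 on the young arrays, a range of 1.18-fold in level. The signals on geriatric arrays 1 to 4 were 396, 383, 601 and 244. Geriatric array 3 was again the highest, and geriatric array 4 was the lowest of all 7 arrays in signal, with a level of −2.446 beside −2.441 on young array 3. The groups therefore overlapped, with a difference of 0.365 log2 units (interval −0.374 to 1.103) and a limma adjusted p of 0.854. Without geriatric sample 3 it was 0.099.

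Fzd7, the Wnt7a receptor of satellite cells, was read by 2 probes. The first (A_51_P142107) gave 257, 200 and 441 on the young arrays and 826, 639, 376 and 394 on geriatric arrays 1 to 4. Geriatric arrays 1 and 2 were the brightest. After scaling, geriatric sample 3 (level −2.075) lay below young sample 3 (level −1.868) and geriatric sample 4 (level −1.756) just above it, so the groups overlapped. The levels were −2.431 ± 0.536 (SD, n = 3) and −1.625 ± 0.527 (SD, n = 3). The geriatric mean was 1.75-fold the young one, a difference of 0.806 log2 units (interval −0.156 to 1.767) with a limma adjusted p of 0.737. It was 0.516 without geriatric arrays 1 and 2.

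The second Fzd7 probe (A_52_P552665, chr1:59543192-59543251, plus strand) gave 291, 222 and 425 on the young arrays and 436, 402, 627 and 293 on geriatric arrays 1 to 4. Here geriatric array 3 was the brightest, whereas with the first Fzd7 probe it was the faintest of the geriatric arrays. The difference was 0.552 log2 units (interval −0.256 to 1.361, limma adjusted p 0.790). The 2 probes thus gave Fzd7 the same direction and a different order of the geriatric samples. The first Fzd7 probe and the Fzd2 probe printed above, with 42 of 50 bases alike, were also brightest in different geriatric samples.

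**Figure D2:**
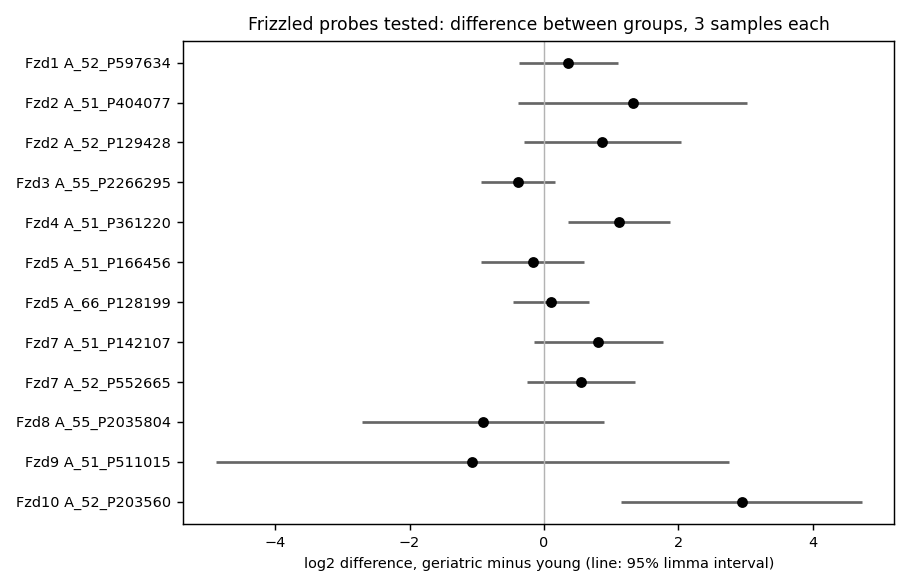
Difference between the means of 3 geriatric and 3 young samples (log2 units, geriatric minus young) for the 12 tested Frizzled probes, with the 95% limma interval as a line. The intervals of Fzd4 (0.352 to 1.875) and Fzd10 (1.153 to 4.737) lay above 0 before adjustment for 41261 probes, all others spanned 0, and Fzd9 had the widest, from −4.888 to 2.756; the Fzd10 value rests on young signals below background.

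Fzd8 (A_55_P2035804, chromosome 18), the closest relative of Fzd5 and a receptor of β-catenin signalling, had signals of 897, 687 and 488 on the young arrays. Its geriatric signals, arrays 1 to 4, were 136, 95.5, 616 and 574. Only the sample on geriatric arrays 1 and 2 was low, at a level of −3.717, while geriatric samples 3 and 4 stood at −1.363 and −1.212, within the young range of −1.721 to −0.687. The difference of −0.910 log2 units had an interval of −2.712 to 0.892 and a limma adjusted p of 0.852. Without the low sample it was −0.100.

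Fzd5, its relative and likewise a β-catenin receptor, gave 1554, 1281 and 830 on the young arrays with its first probe (A_51_P166456, chr1:64781972-64782030, minus strand). On geriatric arrays 1 to 4 this probe gave 930, 845, 1159 and 1003. The geriatric samples lay within the young range. The difference was −0.171 log2 units (interval −0.943 to 0.601, limma adjusted p 0.943), which leaves room for a change of either sign.

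The second Fzd5 probe (A_66_P128199, chr1:64779479-64779538, minus strand) gave 432, 324 and 462 on the young arrays and 364, 334, 492 and 415 on geriatric arrays 1 to 4. The groups overlapped over nearly their whole range. The difference was 0.103 log2 units (interval −0.467 to 0.673, limma adjusted p 0.957), opposite in sign to the first probe, and each sign turned when 1 young sample was left out (young sample 1 for the first probe, young sample 2 for the second).

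Fzd3 (A_55_P2266295, chr14:65854084-65854142, minus strand), a receptor of the planar cell polarity branch, gave 908, 1290 and 1103 on the young arrays. Those on geriatric arrays 1 to 4 were 715, 668, 1052 and 700. The geriatric arrays were lower except for geriatric array 3, which lay among the young ones. The levels were −0.487 ± 0.219 (SD, n = 3) and −0.877 ± 0.267 (SD, n = 3), a difference of −0.391 log2 units (interval −0.945 to 0.164) with a limma adjusted p of 0.784. The sign was the same in all 16 alternatives, from −0.660 to −0.269, and none of them passed. Among these, the changes of filter and the block by the number in the sample description could not alter the difference.

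Fzd6, its partner in planar cell polarity (A_52_P217710, chr15:38869107-38869166, plus strand), gave 7.92, 12.3 and 39.7 on the young arrays and 18.0, 7.78, 15.8 and 595 on geriatric arrays 1 to 4. It was well above background on young array 3 and geriatric array 4, 2 of the 7 arrays, and so was not tested. Geriatric array 4 alone carried a clear signal, and no statement about age can be drawn from 1 sample.

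**Figure D3:**
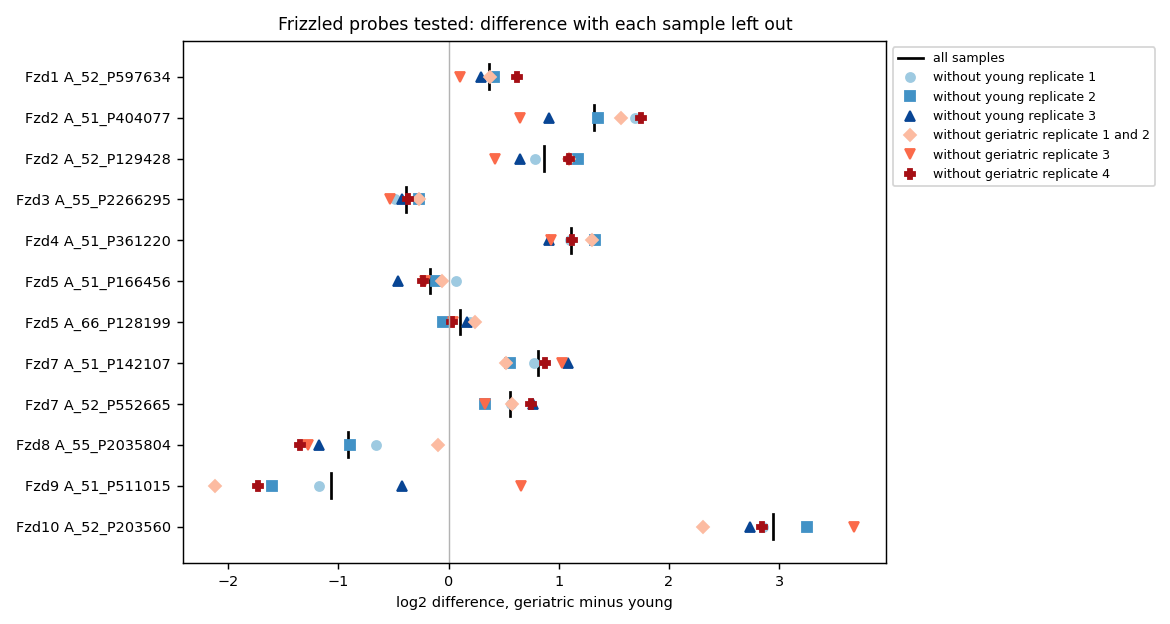
Difference between the group means (log2 units, geriatric minus young) of the 12 tested Frizzled probes with all samples (black tick) and with each sample left out in turn (coloured points, each named in the key). Fzd4 stayed higher in geriatric samples whichever was left out, Fzd9 moved from −1.066 to 0.653 without geriatric sample 3, and Fzd8 moved from −0.910 to −0.100 without geriatric arrays 1 and 2.

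The family did not move as 1 block across the geriatric samples. Geriatric sample 3 was the highest of the 6 samples for 5 of the 12 tested probes, those of Fzd1, Fzd2 and Fzd4 and the second of Fzd7. It was not well above background for Fzd9. The sample on geriatric arrays 1 and 2 was the highest for the first Fzd7 probe and for Fzd10 and the lowest for Fzd8 and Fzd3. Young sample 3 was the lowest for 4 probes measured on all arrays, those of Fzd2 and Fzd4 and the first of Fzd5. The median SD within groups was 0.481 log2 units over the tested Frizzled probes, Fzd9 and Fzd10 with signals below background among them, against 0.393 over all tested probes.

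Markers of other cells were read beside these values, since in a sorted population fewer cells of a type and less RNA per cell cannot be told apart. Of 12 endothelial markers, 12 were well above background on geriatric array 4, the array with the Fzd6 signal, against 6 to 9 on the others, and 9 of the 12 were highest there relative to the array's 75th percentile. The endothelial signals, each divided by the array's 75th percentile and not in log2, were also summed. The sum was 8.26 to 9.84 in the young samples and 9.04 to 12.9 in the geriatric samples. It was highest not in geriatric sample 4 (11.8) but in the sample on geriatric arrays 1 and 2 (12.9). Such a sum mostly follows its brightest marker, here Tek, and does not weigh the 12 markers alike. The endothelial markers not highest on geriatric array 4 were Eng, Tek and Cldn5. They were highest on geriatric array 1, geriatric array 2 and young array 3. Tek, the brightest marker, gave 12050, 12966 and 10479 on the young arrays and 17011, 15974, 11729 and 10755 on geriatric arrays 1 to 4. Tie1, an endothelial receptor kinase, gave 642 on geriatric array 4 and at most 10.1 elsewhere. Pecam1, the gene of the gating antigen CD31, gave 732 on geriatric array 4 and 17.0 to 205 elsewhere. The part of endothelial RNA in the Fzd6 value was not tested.

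Of 12 markers of fibro-adipogenic progenitors, the stromal cells of muscle, 9 were well above background on all 7 arrays. A higher geriatric mean was found for 10 of the 12, against 49.2% of all tested probes. The stromal signals, summed in the same way as the endothelial ones, gave 46.7 to 62.3 in the young samples and 59.6 to 68.9 in the geriatric samples. The brightest marker in this sum was Col3a1. Pdgfra, the receptor that defines these cells, was well above background on 0 of 7 arrays, so its higher geriatric mean was one of background signals. Ly6a and Lum were not well above background on geriatric arrays 1 and 2. Dcn, a matrix proteoglycan of stroma, gave 7990, 8990 and 4678 on the young arrays and 8914, 8600, 32822 and 26490 on geriatric arrays 1 to 4. Ly6a, the gene of the gating antigen Sca1, gave 42.5, 15.2 and 96.2 on the young arrays and 17.2, 15.4, 177 and 240 on geriatric arrays 1 to 4. Smoc2, another stromal marker, gave 244, 240 and 486 on the young arrays and 458, 501, 1470 and 353 on geriatric arrays 1 to 4. Relative to the 75th percentile of each array, 6 of the 12 markers were highest on geriatric array 3, as Fzd2 and Fzd4 were (Dcn, Smoc2, Mfap5, Fbn1, Cd248 and Pdgfra, the last not above background), and 3 on geriatric array 4 (Ly6a, Lum and Dpt). The other markers, Col1a1 and Col3a1, were highest on geriatric array 1, and Gsn on young array 2. Col3a1 gave 37930, 54113 and 44842 on the young arrays and 57505, 48632, 43424 and 26970 on geriatric arrays 1 to 4. Col1a1 gave 382, 541 and 929 on the young arrays and 1034, 847, 565 and 315 on geriatric arrays 1 to 4. The part of stromal RNA in the values of Fzd2 and Fzd4 was not tested.

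**Figure D4:**
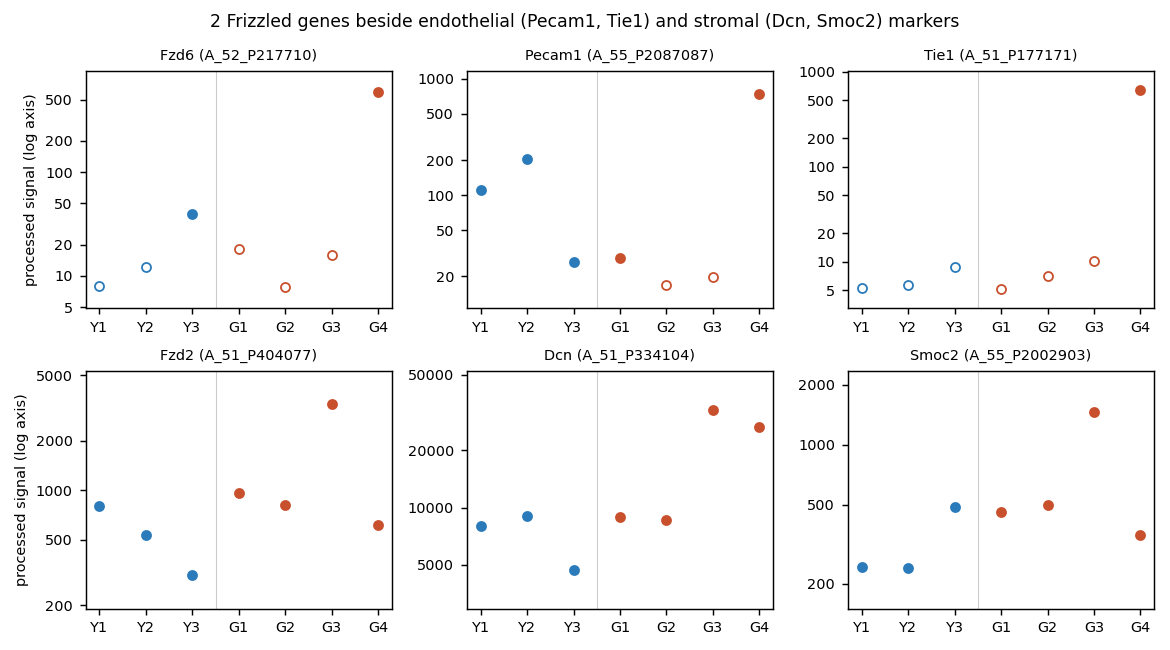
Processed signal (intensity units, log axis) on each array of Fzd6 beside the endothelial markers Pecam1 and Tie1, and of Fzd2 beside the stromal markers Dcn and Smoc2, for young arrays Y1 to Y3 and geriatric arrays G1 to G4; open points were not well above background. Fzd6, Pecam1 and Tie1 were all highest on geriatric array 4. Fzd2 (3329), Dcn (32822) and Smoc2 (1470) were all highest on geriatric array 3, with Dcn also high on geriatric array 4 (26490). The markers shown were chosen after their values were seen. After scaling, 9 of 12 endothelial markers were highest on geriatric array 4, but not Eng, Tek or Cldn5. Of 12 stromal markers, 6 were highest on geriatric array 3, but not Ly6a, Lum, Dpt, Col1a1, Col3a1 or Gsn. The part of endothelial or stromal RNA in the Fzd6 and Fzd2 values was not tested.

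The partners of the Frizzleds were read from 7 lists with 81 different genes, each gene by its brightest tested probe. Of these, 68 were tested and 0 passed (limma adjusted p over all tested probes), with 4 at an unadjusted p under 0.05; over all genes read by their brightest probe that share was 6.69%. Of the tested genes 55.9% had a higher geriatric mean, against 49.6% of 27398 genes read the same way, whose median difference was −0.0029. Among 10 genes listed as co-receptors and other Wnt receptors, 8 were higher and 2 lower, with a median difference of 0.082 and 0 passing. The list also held Smo, which is not a Wnt receptor, among the higher genes at 0.054 log2 units. Reck, which with Gpr124 makes a receptor complex for Wnt7a and Wnt7b, differed by 0.82 log2 units (SE 0.254, limma adjusted p 0.565), while its other probe gave 0.227. Gpr124 differed by 0.165 and Lrp5 by 0.105 log2 units, with limma adjusted p of 0.903 and 0.930.

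Of 12 genes of Frizzled turnover, trafficking and Norrin signalling, 9 were tested, 5 higher and 4 lower, with a median of 0.034 and 0 passing. Tspan12, the tetraspanin that joins Fzd4 to Norrin, differed by −0.297 log2 units (SE 0.379, limma adjusted p 0.917). Fzd4 and its Norrin partner thus had differences of opposite sign, each without passing. Apcdd1, a membrane inhibitor of Wnt signals, differed by 0.577 and Shisa5 by 0.104 log2 units (0.004 on its other probe), with limma adjusted p of 0.785 and 0.949.

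Of 19 Wnt ligands, 14 were tested, 7 higher and 7 lower, with a median of 0.041 and 0 passing. Wnt10a was well above background on 0 of 3 young and 4 of 4 geriatric arrays (limma adjusted p 0.414). Its geriatric mean was at least 6.01-fold the young one, taken against the background floor. That bound leaves out the spread among geriatric samples, whose SD was 1.609 log2 units. Wnt10a entered the test through its geriatric arrays alone, as Fzd10 did. Wnt2b differed by −0.715 and Wnt5b by −0.333 log2 units, with limma adjusted p of 0.834 and 0.838.

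Of 5 secreted proteins with a Frizzled-like domain, which bind Wnts outside the cell, 4 were tested, 3 higher and 1 lower, with a median of 1.649 and 0 passing. Sfrp5 differed by 1.617 log2 units (SE 0.367, limma adjusted p 0.386) and Sfrp4 by 1.681 (SE 0.613, limma adjusted p 0.635). Sfrp2 differed by 3.913 (SE 1.940, limma adjusted p 0.747), with 2 of 3 young and 4 of 4 geriatric arrays well above background. The geriatric samples of Sfrp2 had an SD of 3.308, close to the size of the difference.

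The 12 genes of Dishevelled and the β-catenin destruction complex were all tested, 5 higher and 7 lower, with a median of −0.080 and 0 passing. Btrc, the ubiquitin ligase subunit that binds β-catenin and the gene of smallest p on the list, differed by −0.441 log2 units (limma adjusted p 0.737), with 0.102 on its other probe. Fam123b and Dvl1 differed by −0.376 and −0.235 log2 units, with limma adjusted p of 0.844 and 0.850.

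The 13 planar cell polarity partners of Fzd3 and Fzd6 were all tested, 8 higher and 5 lower, with a median of 0.172 and 0 passing. Celsr2, an atypical cadherin that bridges cells, differed by −0.689 log2 units (limma adjusted p 0.695), with −1.058 on its other probe. Vangl1, which sits opposite Frizzled at cell borders, differed by 0.674 (limma adjusted p 0.712), with 1.338 on its other probe. Prickle3 differed by 0.80 log2 units, with a limma adjusted p of 0.791.

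Of 14 genes known to respond to β-catenin, 9 were tested, 4 higher and 5 lower, with a median of −0.066 and 0 passing. Ccnd1, the cyclin of G1 phase, differed by −0.404 log2 units (limma adjusted p 0.830), Myc by −0.792 (limma adjusted p 0.865) and Apcdd1, on this list too, by 0.577. The targets thus held differences of both signs.

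The genes most like Fzd4 across the 6 samples were found among 12500 named genes well above background on all 7 arrays. Likeness was the mean absolute difference of log2 levels after centring each gene on its own mean. The nearest were Megf11 at 0.095, Pde1c at 0.110 and Tmem30b at 0.120 log2 units. Those nearest to the first Fzd7 probe were Taf3 at 0.104, Cpne2 at 0.126 and Tcte2 at 0.127 log2 units. Both are descriptions of these 6 samples.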

How the data were processed

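Per the file headers, the deposited spot intensity values came from Feature Extraction 10.7.3.1, whose processed signal is background-subtracted and detrended. Levels are log2 of the processed signal after dividing by the 75th percentile of each array (1329.56 to 1609.33) over probes other than controls. On each array 124 to 229 outlier spots were dropped, repeat spots were averaged, and 0 probes were saturated. A probe was tested if well above background on at least 3 of 7 arrays (38052 to 41293 probes per array were). The authors' deposited log2 value table (median 8.02 in each column; background correction not given in the sources used here) was an alternative.

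Geriatric arrays 1 and 2 were averaged, and groups were compared with limma 3.58.1 (lmFit, eBayes, 2-sided, Benjamini-Hochberg) in R 4.3.3, tested on simulated data. Where no array of a group measured a probe, the fold ("at least") is taken against a floor, the lowest signal well above background on that array or the probe's own value if higher. For Fzd10 the fold is not a lower limit, since the floor was not applied to its geriatric sample 3. Coordinates are the array files' (mm9); the exon each probe lies in was not analysed here. All 10 accessions matched the same symbol in RefSeq (GRCm38.p6). All arrays lay on 1 slide. Members and lists were chosen with earlier results of these data known. All members were named, with the 3 genes of smallest unadjusted p per list and the 3 nearest patterns; marker genes and other probes were chosen after their values were seen.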

Additional observations from a re-analysis of the deposited data

How the results depend on the processing

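No Frizzled probe and no pathway gene passed under any of the alternatives tried (limma) (0 of 12 and 0 of 68 in the main values). Of all tested probes 6 passed in the main values, 2 with the authors' table, 103 with 7 arrays as 7 samples, and 0 without a filter on dim probes, with probes measured on all 7 arrays only, with a replicate block and with the slide row as a block (limma; 4628, 2714, 3172 and 2501 at an unadjusted p under 0.05). With 1 sample or array left out the count ran from 0 to 6, and the median Frizzled difference from 0.369 to 0.687. The second Fzd5 probe turned to −0.008 with the authors' table and −0.192 with the slide row as a block, and Fzd9 to 1.05 with the slide row. With 1 sample or array left out, the first Fzd5 probe ran from −0.464 to 0.066, the second from −0.051 to 0.243, and Fzd9 from −2.117 to 0.653. The causes were not tested. The slide row leaves geriatric array 1 against the 3 young arrays, where Fzd4 differed by 0.791, the first Fzd7 probe by 1.492 and Fzd8 by −2.353. The replicate block used the number in each sample's description, not the array number used here. By description, geriatric arrays 1 and 2 are number 1, geriatric array 3 is number 2 and geriatric array 4 is number 3. Samples of the same number in the 2 groups were not alike (correlations of −0.037, 0.027 and 0.038). With 1 young and 1 geriatric sample per number, the replicate block cannot change a group difference, only its error. The Fzd4 difference was therefore still 1.114, with a limma adjusted p of 0.547. Changes of the filter on dim probes cannot alter a difference either. Only 3 samples per group limit the precision, and signals near background (Fzd6, Fzd9, Fzd10) have no firm level.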
